A study of Mus musculus with 18 samples.

Results

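Whole mouse embryos that made the least Tbx1 transcript were compared with embryos that made it at the wild-type level. The 8 embryos of this comparison are 8 of the 18 in a Tbx1 dosage series, in which 9 genotypes were each represented by 2 embryos at embryonic day 9.5, with 1 embryo per array. The low tier holds the embryos labelled Neo/Neo (Tbx1 Neo on both chromosomes) and -/- (the null allele on both), and the full tier holds WT (+/+) and Neo2/+ (the Neo2 allele over a wild-type allele), 4 embryos each. These genotypes were placed in tiers by their measured Tbx1 signal, so the Tbx1 difference is a description and was not tested. All embryos shared a mixed background of 129SvEv and C57Bl/6, were dissected whole, and were genotyped by PCR. Neo and Neo2 are alleles of the endogenous gene that keep part of its activity, and the labels name no transgene, Cre driver or pooled embryos. By Xist and Y-linked genes, WT and -/- embryos were all female, Neo/Neo embryos all male, and Neo2/+ had 1 of each sex. Nothing in the labels says which embryos were littermates, so a shared litter could not be entered in any fit.

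Tbx1 is a transcription factor of the T-box family, made in the pharyngeal endoderm, the mesodermal core of the pharyngeal arches, the second heart field and the otic vesicle. It is a main gene of DiGeorge syndrome. Embryos without it form abnormal pharyngeal arches and pouches, an unseptated outflow tract and a small otic vesicle. The tissues that express it are a small share of a whole embryo, and in RNA from whole embryos a loss of cells of a type and a lower RNA level per cell cannot be told apart.

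Values are log2 signals summarised by RMA (robust multi-array average, which equalises the distributions of all arrays), and a difference of 1 is a doubling. Array medians lay between 5.73 and 5.94. Replicate 1 of -/- stood apart within the low tier, with a median correlation with the other arrays of 0.985 against 0.992 to 0.995 for the other 7 arrays of the tiers. Malat1, an RNA kept in the nucleus, read 8.29 there and 11.50 in replicate 2 of -/-, against 12.42 to 12.77 on the other 6. The counts of called probe sets, the named genes and the list medians were also computed without each embryo in turn. No detection call comes with RMA values, and whether a dim probe set was above background is therefore unknown.

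The Tbx1 signals were 6.54 and 6.63 in WT and 6.59 and 6.50 in Neo2/+. They were 5.04 and 5.20 in Neo/Neo and 4.98 and 5.16 in -/-, a difference of -1.47 between the tier means. The tiers did not overlap, and Neo/Neo and -/- differed from each other by 0.05. The genotypes just outside the low tier were Neo2/Neo, with a mean of 5.66 ± 0.02 (SD, n = 2), and Neo2/-, with 5.71 ± 0.13 (SD, n = 2). Just outside the full tier lay +/- at 6.37 ± 0.34 (SD, n = 2) and Neo/+ at 6.30 ± 0.07 (SD, n = 2). Neo2/Neo2 embryos had 6.62 and 6.62, but carry no wild-type allele and are not in the full tier.

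Across 45036 probe sets (all but the Tbx1 probe set), 1 differed between the tiers at an adjusted p under 0.05, which is 0.00222% of those tested (limma, Benjamini-Hochberg over all probe sets). It was 1436107_at, annotated to Lsm8, a subunit of the ring of Lsm proteins that binds the end of U6 RNA in the nucleus. Its signals were 6.54 and 6.55 in WT, 6.66 and 6.65 in Neo2/+, 3.90 and 3.92 in Neo/Neo, and 4.09 and 4.06 in -/-. It fell by 2.61 ± 0.08 (SE) in the low tier, a 6.10-fold difference with an adjusted p of 1.10e-06 (limma). Neo/Neo and -/- moved alike, with differences of -2.69 and -2.52 from the full tier. An unadjusted p under 0.05 was reached by 2620 probe sets, or 5.82%.

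The same Lsm8 probe set took 3 separate levels over the whole series. Of the 10 embryos of neither tier, 9 lay between 5.62 and 5.92, below every full-tier embryo and above every low-tier embryo. The remaining embryo, Neo2/- replicate 2, lay at 6.81, beside the full tier. Among those 9 were the Neo2/Neo2 embryos, at the WT level of Tbx1, with Lsm8 signals of 5.92 and 5.82. A relation of these levels to Tbx1 was not tested. A brighter Lsm8 probe set, 1448703_at, did not show the difference. It read 11.54, 11.54, 11.54 and 11.51 in the full tier and 11.51, 11.47, 11.93 and 11.51 in the low tier, a difference of 0.07 ± 0.11 (SE; limma, adjusted p = 0.916). Its sign turned without -/- replicate 1, where the difference was -0.04, and with array weights, where it was -0.03. The 2 Lsm8 probe sets were chosen for description after their values were seen.

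**Figure D1:**
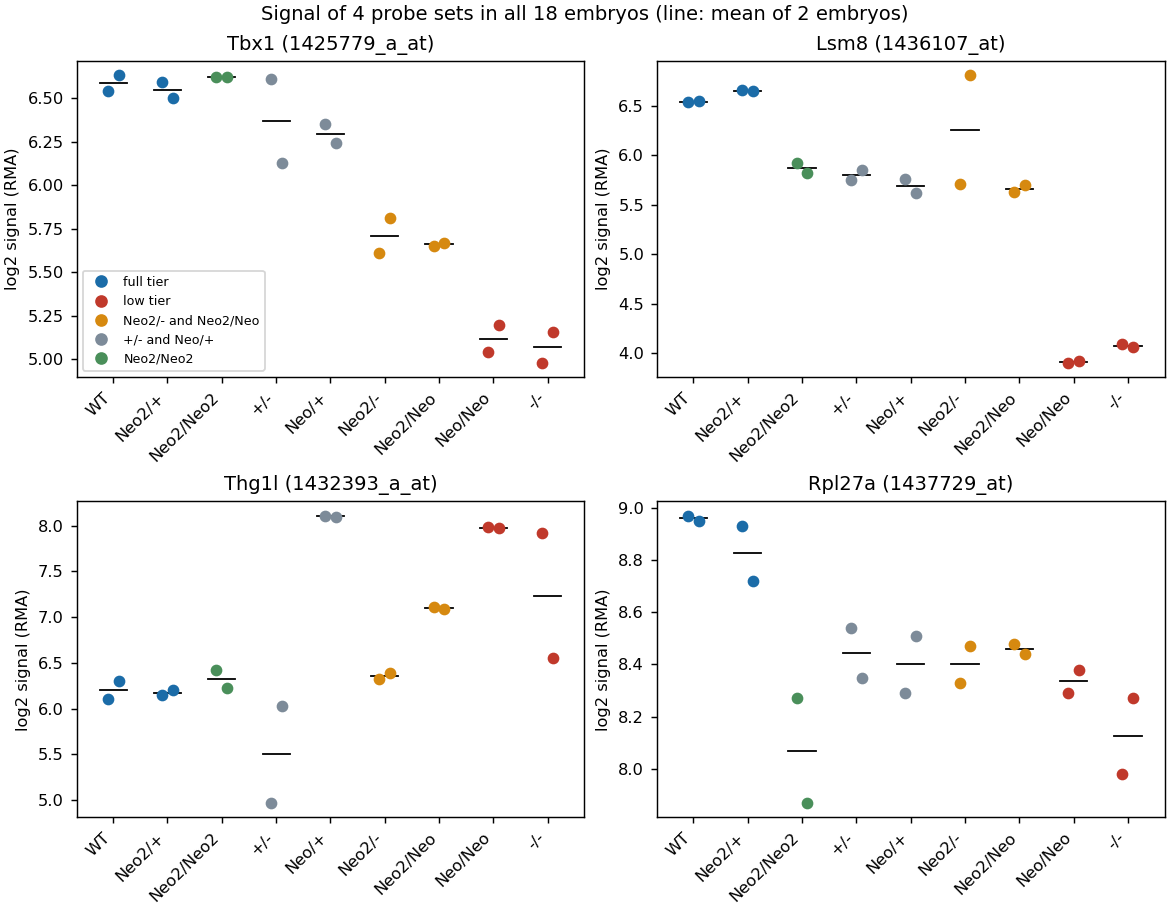
Signals of Tbx1, the called Lsm8 probe set, Thg1l and Rpl27a in all 18 embryos, by genotype (log2 RMA signal on the y axis, points for embryos, lines for the mean of 2). Lsm8 lies near 6.6 in WT and Neo2/+ and near 4 in Neo/Neo and -/-, while Thg1l in -/- is split between 7.92 and 6.55.

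With 1 value per gene, from the brightest probe set with a single symbol, 0 of 18188 genes passed the threshold (limma), while 689 higher and 204 lower genes had an unadjusted p under 0.05. The 24 genes described next, 12 in each direction, are those with the smallest p among genes whose differences in Neo/Neo and in -/- had the same sign and were within a factor of 2 of each other. None was called in the pooled comparison, with adjusted p-values from 0.360 to 0.830 (limma), and their values are given as measured. In 23 of the 24 the 4 low-tier embryos lay entirely to one side of the 4 full-tier embryos, a separation shown by 1793 probe sets, or 3.98%, and the choice by smallest p favours it. The exception was Sgip1.

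Thg1l and Adat2, both enzymes that act on tRNA, had the largest differences of the 12 higher genes. Thg1l, which adds the extra guanosine to histidine tRNA, had signals of 6.11, 6.30, 6.15 and 6.20 in the full tier, 7.98 and 7.97 in Neo/Neo, and 7.92 and 6.55 in -/-. The difference was 1.41 ± 0.29 (SE), with an adjusted p of 0.741. Adat2, the catalytic subunit of the deaminase that makes inosine in tRNA anticodons, had 7.27, 7.44, 7.43 and 7.41 in the full tier, 8.72 and 8.71 in Neo/Neo, and 8.66 and 7.64 in -/-, a difference of 1.04 ± 0.22 (SE; limma, adjusted p = 0.741). In both genes -/- replicate 2 was the embryo nearest to the full tier, and the other 3 low-tier embryos lay close together. Neither gene was called without any 1 of the other 7 embryos, with differences of 1.29 to 1.45 for Thg1l and 0.95 to 1.06 for Adat2 (limma, adjusted p of 0.645 to 0.948). Without -/- replicate 1, the embryo that stood apart by its correlation, they were 1.31 (adjusted p = 0.789) and 0.97 (adjusted p = 0.805) by limma. Leaving out -/- replicate 2 alone gave a call, at 1.76 (adjusted p = 8.61e-05) and 1.31 (adjusted p = 0.000419) by limma, but that embryo was the one seen to lie nearest to the full tier, so these p-values depend on the outcome and are no support for a difference. Both genes were also high in Neo/+ embryos, at 8.11 and 8.09 for Thg1l and 8.85 and 8.87 for Adat2, although Tbx1 in Neo/+ was close to the full tier. Neo2/- embryos, with less Tbx1 than Neo/+, read 6.32 and 6.39 for Thg1l and 7.36 and 7.47 for Adat2. All 6 embryos labelled Neo/+, Neo2/Neo or Neo/Neo lay at 7.09 or above for Thg1l, and of the other 12 embryos -/- replicate 1 alone did. This grouping was chosen after the values were seen, and no test was made of it.

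Ctsf, a cysteine protease of the lysosome, read 6.09, 6.08, 6.06 and 6.26 in the full tier, 6.92 and 6.83 in Neo/Neo, and 6.40 and 6.65 in -/- (difference 0.58 ± 0.12, SE). Cldn11, a tight junction claudin, read 4.24 to 4.47 in the full tier and 4.67 to 4.87 in the low tier (0.43 ± 0.08, SE). B9d1, a protein of the transition zone of primary cilia, read 7.92 to 8.18 and 8.30 to 8.76 (0.47 ± 0.11, SE). Uxs1, which makes the UDP-xylose used in proteoglycan synthesis, had 7.97 to 8.06 and 8.29 to 8.68 (0.44 ± 0.09, SE). The differences were small beside those of Thg1l and Adat2, but the tiers did not overlap in any of these 4 genes. The zinc finger genes Zfp286, AU041133 and Zfp938 were higher by 0.54, 0.62 and 0.42, the hydrolase gene Cmbl by 0.53, the membrane protein gene Pqlc3 by 0.40 and the transcript Med9os by 0.53. Med9os lies antisense to another gene by its name, and whether its probe set reads that gene was not tested.

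Among the lower genes, Rpl27a, a protein of the large ribosomal subunit, had the smallest p. Its signals were 8.97, 8.95, 8.93 and 8.72 in the full tier, 8.29 and 8.38 in Neo/Neo, and 7.98 and 8.27 in -/-, a difference of -0.66 ± 0.10 (SE; limma, adjusted p = 0.360). In -/- alone against the full tier it fell by 0.76 (limma, adjusted p = 0.0388), a call lost in 11 of 15 alternatives. The 10 embryos of neither tier read 7.87 to 8.54, below every full-tier embryo, so that the full tier stood alone. Ribosomal protein genes have many near-identical processed copies, and the source of this signal is uncertain to that extent.

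Of the 24 genes, the largest difference was that of the probe set annotated to Mir1931, the gene of a mouse microRNA. It read 6.52, 6.27, 6.80 and 7.04 in the full tier, 3.60 and 3.99 in Neo/Neo, and 3.78 and 5.79 in -/-, a difference of -2.37 ± 0.42 (SE; limma, adjusted p = 0.5001). As for Thg1l and Adat2, -/- replicate 2 was nearest to the full tier. Outside the tiers, Neo/+ replicate 1 had the lowest Mir1931 signal of the series, 3.41, at a Tbx1 signal of 6.35. The other embryos of neither tier read 5.66 or above. The gene was not called without any 1 of the other 7 embryos, with differences of -2.50 to -2.14 (limma, adjusted p of 0.645 to 0.948), among them -2.20 without -/- replicate 1 (adjusted p = 0.658). Without -/- replicate 2 it was -2.87 (limma, adjusted p = 0.000419), a p with the same dependence on the outcome. The arrays measure long transcripts, so this is a signal at that gene and not a level of the mature microRNA. The mature sequence is shown to identify the gene, as given by RefSeq in GRCm38.p6 (chr10:93162879-93162900, plus strand), with the seed, bases 2 to 8, in capitals.
mmu-miR-1931: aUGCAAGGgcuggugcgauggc

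Arglu1, a nuclear regulator of splicing and transcription, read 10.76 to 10.85 in the full tier and 10.42 to 10.55 in the low tier, a difference of -0.29 ± 0.07 (SE). Rbm28, a nucleolar RNA-binding protein, read 9.84 to 10.03 and 9.27 to 9.70 (-0.48 ± 0.10, SE). Tbc1d17, a GTPase-activating protein for Rab proteins, read 7.76 to 8.06 and 7.39 to 7.57 (-0.47 ± 0.09, SE). Again the tiers did not overlap. Cercam differed by -0.54, the mitochondrial D-2-hydroxyglutarate dehydrogenase D2hgdh by -0.47, the phosphatase subunit gene Ppp2r3d by -0.48, the tubulin deglutamylase Agbl5 by -0.47, the endocytosis gene Sgip1 by -0.45, and the transcripts 2410018L13Rik and 4930425O10Rik by -0.56 and -0.39.

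Other probe sets of the same genes gave a mixed check. Of the 24 genes, 12 had further probe sets, 18 in all, of which 12 differed in the same direction and 6 in the opposite one. Of these, 4 reached an unadjusted p under 0.05: those of Uxs1 (0.31), Zfp286 (0.31) and Arglu1 (-0.41) in the same direction, and that of Rbm28 (0.30) in the opposite one. For Rbm28 the direction therefore depends on the probe set. The second probe set of Thg1l differed by 0.21.

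**Figure D2:**
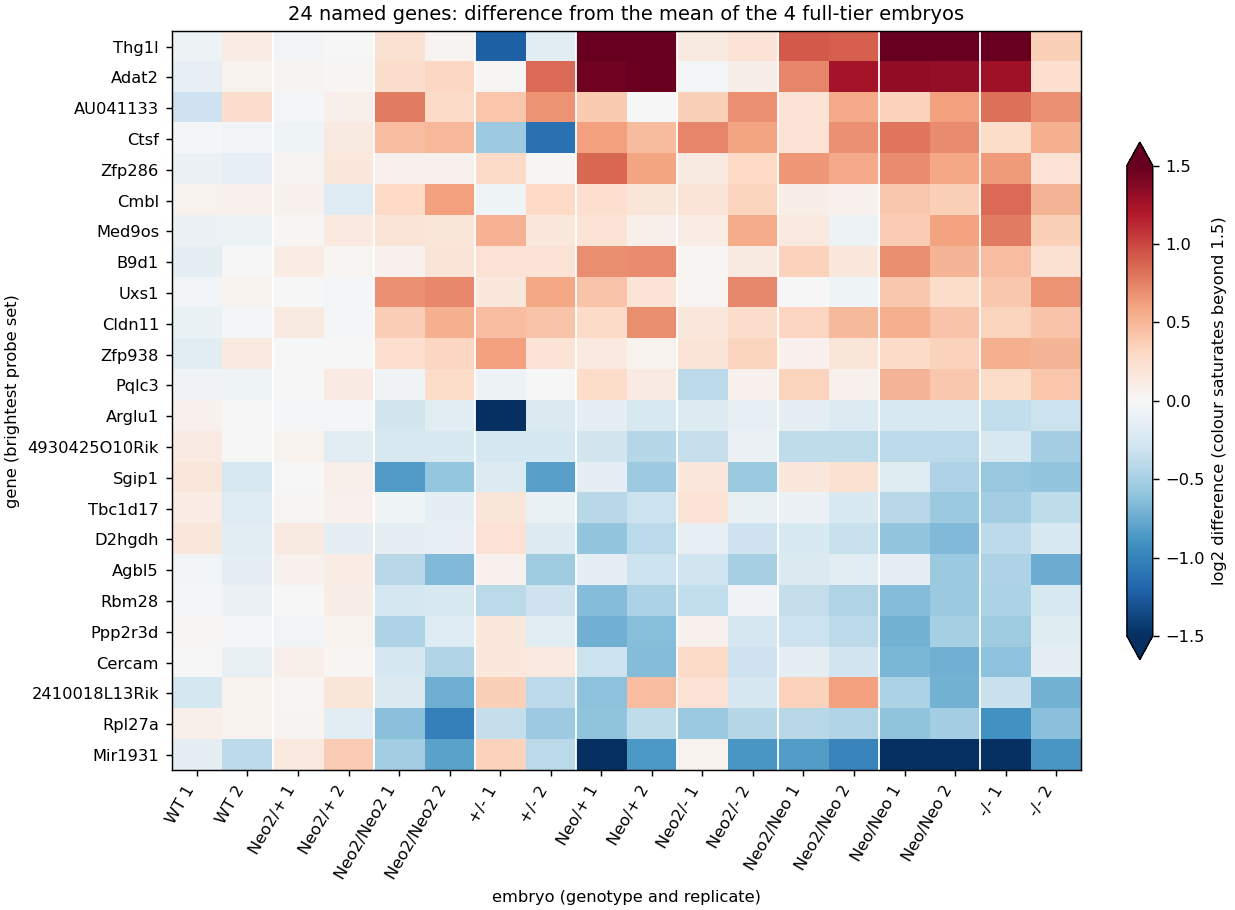
Difference of each of the 24 genes from the mean of the 4 full-tier embryos, in all 18 embryos (genes in rows, embryos in columns by genotype and replicate, colour for the log2 difference, saturating beyond 1.5). Thg1l and Adat2 are high in Neo/+, Neo2/Neo and Neo/Neo embryos and in -/- replicate 1, and Arglu1 is low in +/- replicate 1, where its signal is 6.52.

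Separation of the 4 low-tier from the 4 full-tier embryos was also counted without regard to p. Some probe sets separate 4 embryos from 4 by chance, and that share was not computed, so these counts are a description. All 4 low-tier embryos lay above all 4 full-tier embryos at 1086 probe sets (2.41%) and below them at 707 (1.57%). Of these, 712 higher (1.58%) and 445 lower ones (0.988%) moved alike in Neo/Neo and -/-. A difference of at least 0.5 was also met by 37 higher probe sets (0.0822%) and 63 lower ones (0.14%), which are called the higher and lower sets below. The lower set was the less well annotated, with 26 of its 63 probe sets assigned to a single gene (0.0577% of all probe sets) against 36 of 37 in the higher set (0.0799%). Besides the genes above, the higher set held the translation factor gene Paip1 (2.84 and 1.83 at 2 probe sets), the growth factor gene Tgfb2 (0.71), the heat shock gene Hspa1b (0.85 and 0.65), the chromatin protein gene Jade1 (0.67) and the p53 target Ccng1 (0.51). The lower set held Smo, the signal transducer of the hedgehog pathway (-0.71), the nutrient-sensing regulator Mios (-0.68), the heparan sulfate polymerase Ext1 (-0.67), the zinc finger gene Zbtb16 (-0.58) and a probe set of the cytoskeletal gene Actb (-0.54). The Smo probe set was dim, with a mean of 3.92 over the 18 arrays. By the brightest probe set of each gene, 0 of 14 hedgehog genes had an unadjusted p under 0.05 (limma). Adjusted p-values over the members of these sets other than Lsm8 were 0.173 to 0.830 (limma). The brightest probe set of its gene made up 4 of the 63 in the lower set (0.00888% of all probe sets) and 17 of the 37 in the higher set (0.0377%), so most of the 26 single-gene probe sets of the lower set, the Lsm8 one among them, have a brighter probe set of the same gene on the array.

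Each low genotype was then compared with the full tier by itself. In Neo/Neo, 6 probe sets rose (0.0133%) and 35 fell (0.0777%), 41 in all (0.091% of those tested; limma). In -/-, 21 rose (0.0466%) and 308 fell (0.684%), 329 in all (0.731%; limma). The comparisons share their full-tier embryos. The probe sets called in both were 4 (0.00888%), all lower: the Lsm8 probe set and 3 that the annotation gives to no gene (1438891_at, 1445111_at and 1459187_at). That is 4 of 41 and 4 of 329. At 1438891_at the full tier read 6.12 to 6.22, Neo/Neo 4.07 and 4.27, and -/- 4.77 and 5.43. At 1459187_at the full tier read 6.78 to 7.39, Neo/Neo 5.70 and 5.69, and -/- 6.27 and 6.42. At all 4 the -/- embryos lay above the Neo/Neo embryos.

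The genes called in Neo/Neo had large differences, and 6 of the 7 named here (all but Ccnb1ip1) also differed between Neo/Neo and -/- in the direct test given below. Each was read at its brightest probe set. Sox11 has 6 probe sets on the array, Rpgrip1 4, Galc 3, and Supt16 and Gm6958 2 each. The further ones were not compared, so these are differences at 1 probe set per gene. Rpgrip1, a protein of the photoreceptor connecting cilium, read 11.47 to 11.58 in the full tier, 6.49 and 6.51 in Neo/Neo, and 11.66 and 11.57 in -/-. It fell by 5.04 ± 0.09 (SE), or 32.9-fold, in Neo/Neo (limma, adjusted p = 7.58e-07). Supt16, a subunit of the histone chaperone FACT, read 10.30 to 10.56 in the full tier, 11.96 and 11.99 in Neo/Neo, and 10.30 and 10.06 in -/-, and rose by 1.56 ± 0.10 (SE; limma, adjusted p = 0.00198) in Neo/Neo. Rpgrip1 and Supt16 are neighbours on chromosome 14, with 0 protein-coding genes between them in the RefSeq order. Outside the tiers, Rpgrip1 was at 6.87 and 6.94 in Neo/+, where Supt16 was at 11.97 and 12.17. Rpgrip1 was at 10.45 and 10.31 in Neo2/Neo, where Supt16 was at 11.21 and 11.26. The embryo labelled +/- replicate 1 had the lowest Rpgrip1 signal of the series, 6.24, with Supt16 at 10.80. Low Rpgrip1 thus occurred also in embryos whose Tbx1 signal was 6.24 to 6.61.

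Galc, the lysosomal galactosylceramidase, read 6.88 to 7.77 in the full tier, 3.89 and 4.35 in Neo/Neo, and 7.61 and 6.97 in -/- (fell by 3.32 in Neo/Neo; limma, adjusted p = 0.00206). Sox11, a transcription factor of neural progenitors and neurons, read 12.05 to 12.76 in the full tier, 9.52 and 9.40 in Neo/Neo, and 11.76 and 11.56 in -/- (fell by 2.81 in Neo/Neo; limma, adjusted p = 0.00198). The predicted gene Gm6958 fell by 5.93 in Neo/Neo, from 8.25 to 9.99 in the full tier to 3.21 and 3.05 (limma, adjusted p = 0.0108). It read 6.66 and 8.47 in -/-. Fn3krp, a kinase that removes sugars from glycated proteins, rose by 1.70 in Neo/Neo (limma, adjusted p = 0.0164), and Ccnb1ip1, a regulator of meiotic crossing over that also lies on chromosome 14, rose by 1.25 (limma, adjusted p = 0.0387). For all of these genes the 2 Neo/Neo embryos lay apart from the 4 full-tier embryos. Among embryos of neither tier, Galc read 3.98 in Neo/+ replicate 2 and 6.73 or above in the others. Sox11 read 9.83 in Neo2/Neo replicate 1 and 11.22 or above in the others. Fn3krp read 4.77 to 5.57 in Neo/+, Neo2/Neo and Neo2/- embryos, and Ccnb1ip1 5.63 and 5.67 in Neo/+. Gm6958 read 7.11 or above in all embryos of neither tier. The calls of the 7 genes were lost in 1 (Rpgrip1) to 8 (Ccnb1ip1) of the 14 or 15 alternatives to the fit.

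Of the 8 genes named for -/-, ccdc198 and Glra1 also differed from Neo/Neo in that test. All but ccdc198 and A930024E05Rik have further probe sets on the array, which were not compared. Slc15a2, a peptide transporter, read 5.85 to 7.76 in the full tier and 4.73 and 4.98 in -/-, and fell by 2.26 ± 0.36 (SE; limma, adjusted p = 0.0410). Glra1, a glycine receptor subunit, fell by 1.57 (limma, adjusted p = 0.0232), the chromatin protein gene Setd5 by 1.24 (limma, adjusted p = 0.0282) and the repressor gene Zbed6 by 1.17 (limma, adjusted p = 0.0415). Cd36, a fatty acid receptor, read 5.16 to 5.65 in the full tier and 6.59 and 6.31 in -/-, and rose by 1.01 ± 0.15 (SE; limma, adjusted p = 0.0322). Apela, a peptide ligand of the apelin receptor, rose by 0.79 (limma, adjusted p = 0.0447), ccdc198 by 0.85 (limma, adjusted p = 0.0282) and the transcript A930024E05Rik by 0.66 (limma, adjusted p = 0.0432). The Neo/Neo values of these 8 genes differed from the full tier by -0.56 for Slc15a2, 0.37 for Cd36 and between -0.21 and 0.18 for the other 6. Outside the tiers, Neo2/Neo2 embryos, with Tbx1 at 6.62, read 7.41 and 7.62 for Apela, against 7.35 and 7.54 in -/-. They read 6.25 and 6.43 for Cd36, and 5.01 and 4.57 for Glra1 against 4.58 and 4.49 in -/-. Setd5 and Zbed6 lay between -/- and the full tier there, and ccdc198 read 4.16 and 4.76. Slc15a2 (7.89 and 7.89) and A930024E05Rik (6.73 and 6.75) were not at the -/- level. Each of these 8 calls was lost in 6 (Glra1) to 11 (Zbed6 and A930024E05Rik) of the 14 or 15 alternatives, and 7 of the 8 in more than 50% of them.

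**Figure D3:**
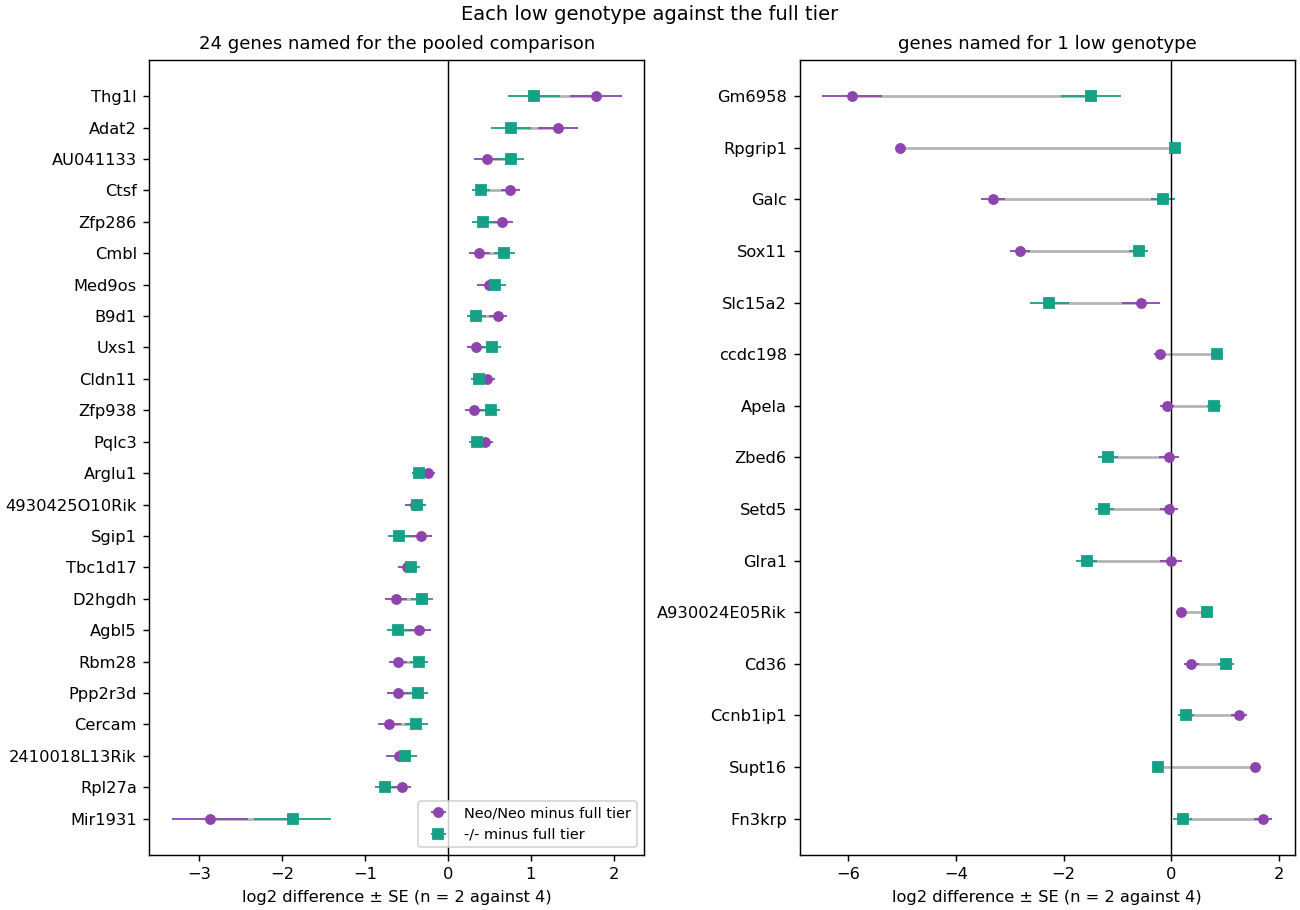
Log2 difference ± SE of Neo/Neo (circles) and of -/- (squares) from the full tier, for the 24 genes of the pooled comparison (left) and the genes called in 1 low genotype (right). The symbols lie on the same side of 0 for the 24 genes, which were chosen for that, and apart for Rpgrip1 (-5.04 and 0.07), Galc (-3.32 and -0.15) and Supt16 (1.56 and -0.25).

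The difference between the low genotypes was tested directly. Neo/Neo and -/- differed at 236 probe sets, with 154 higher (0.342%) and 82 lower (0.182%) in Neo/Neo (0.524% in all; limma), although their Tbx1 signals differed by 0.05. Rpgrip1 was lower in Neo/Neo by a difference of -5.11 (limma, adjusted p = 2.09e-06), Gm6958 by -4.44, Galc by -3.17 and 3110045C21Rik by -2.67. Supt16 was higher by 1.80, Glra1 by 1.57, Fn3krp by 1.49 and the atypical cadherin Fat4 by 1.19, with adjusted p-values of 0.00324 to 0.0402 for these 7 genes (limma). The 8 calls were lost in 1 (Rpgrip1) to 9 (Glra1) of the 14 or 15 alternatives. Fat4 read 9.00 and 8.89 in Neo/Neo and 7.79 and 7.73 in -/-, with the full tier between them at 8.37 to 8.52. A further probe set of Fat4 was not compared. The Neo/Neo embryos were male and the -/- embryos female, so sex and genotype cannot be told apart here, and with sex as a covariate 2 probe sets were called. None of the called probe sets was a sex marker, but this count does not bear on the part of sex. Neo2/+ held 1 embryo of each sex, and the fit took that difference as spread within a genotype. A call of a sex marker was therefore unlikely from the start.

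These counts rest on pairs of embryos. For -/- against the full tier the count was 569 without -/- replicate 1, 7375 without -/- replicate 2, and 17 to 116 without a full-tier or Neo/Neo embryo. With sex as a covariate 17 were called, and with array weights 23. For Neo/Neo against the full tier it was 4 and 10 without replicate 1 or 2 of Neo/Neo, 140 without either -/- embryo, and 9 with sex as a covariate (limma in each case). Within the full tier, Neo2/+ and WT differed at 0 probe sets, with 2504 (5.56%) at an unadjusted p under 0.05 (limma). The genes with the smallest p there were Kcnq5 (-1.78 in Neo2/+), Fos (-0.998), Tmco6 (0.62) and Lockd (0.62), each with an adjusted p of 0.881 (limma).

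The other 8 embryos that differ in Tbx1 gave the same measure in samples that had no part in the choice of genes. Neo2/Neo and Neo2/- (intermediate Tbx1) were compared with Neo/+ and +/- (heterozygotes), a difference in Tbx1 of -0.65. The difference was called at 0 probe sets, while 5184 (11.5%) had an unadjusted p under 0.05 (limma). The Lsm8 probe set differed by 0.22 ± 0.24 (SE), opposite in sign to the tiers, and by -0.07 without Neo2/- replicate 2. Of the 12 higher genes 3 had the same direction here (Ctsf at 0.70, AU041133 at 0.08 and Cmbl at 0.00), and of the 12 lower genes 1 did (Agbl5 at -0.06), with D2hgdh at 0.00. The Ctsf difference lay in the +/- embryos, with a mean of 5.29 and both below every full-tier embryo. Neo/+ embryos had a mean of 6.67, within the 6.34 to 6.85 of the intermediate embryos. A relation of Ctsf to Tbx1 was not tested. Thg1l differed by -0.08 ± 0.67 (SE), Adat2 by -0.45 ± 0.38 (SE), Mir1931 by 0.38 ± 0.68 (SE) and Rpl27a by 0.01 ± 0.08 (SE). In the higher set 11 of 37 probe sets had the same direction, where 38.9% of all probe sets were higher, and in the lower set 13 of 63, where 61.1% of all were lower. These shares of 29.7% and 20.6% fell to 18.9% and 7.94% without +/- replicate 1 and, to the same values, with array weights. They were 43.2% and 27.0% without Neo/+ replicate 2, and 37.8% and 33.3% without Neo/+ replicate 1. The median differences of the sets were -0.09 and 0.16. No gene named for the tiers was called between these embryos. Their gap in Tbx1 is smaller, and +/- replicate 1, with a median correlation of 0.975 with the other arrays, is among them. Without it the count was also 0 (limma).

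Levels in the other genotypes were nonetheless placed between the tiers for most of the 24 genes. The mean of the intermediate embryos lay between the tier means for 12 of the higher and 11 of the lower genes, and that of the heterozygotes for 10 and 11. Since the tiers are the ends of the range for genes chosen by their difference, this placing is a description.

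**Figure D4:**
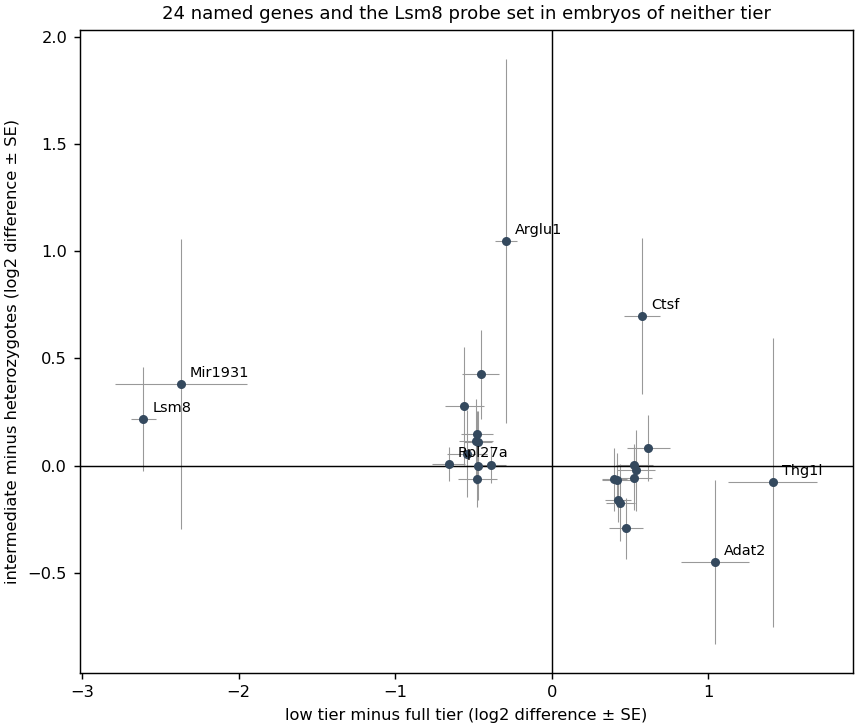
Difference between the tiers (x axis) against the difference of Neo2/Neo and Neo2/- from Neo/+ and +/- (y axis) for the 24 genes and the Lsm8 probe set, both in log2 with SE. Points of the same direction would lie in the lower left and upper right, where Ctsf (0.58 and 0.70, from low +/- embryos) lies farthest out, and Thg1l (1.41 and -0.08) and Lsm8 (-2.61 and 0.22) are not.

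The positions of the genes were looked up in RefSeq for GRCm38.p6, used for names and order. Of the 12 higher genes, 4 are on chromosome 11 (B9d1, Med9os, Thg1l and Zfp286), which is 33.3% against 8% of all genes measured. Another 3 are on chromosome 10, where AU041133 and Zfp938 are neighbours with 0 protein-coding genes between them. Of the 26 genes of the lower set, 5 are on chromosome 6 (C1galt1, Lsm8, Mios, Smo and Zfp638), or 19.2% against 5.49%, with 1 protein-coding gene between Mios and C1galt1. Of the 28 genes called in Neo/Neo against the full tier, 5 are on chromosome 14 (Ang, Ccnb1ip1, Mapk8, Rpgrip1 and Supt16), or 17.9% against 3.57%. Tbx1 itself is on chromosome 16. The largest chromosome counts are described because they were largest.

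Promoters were searched for the core of the T-box site, since the comparison concerns a T-box factor. In the 250 bases before the start of each gene (RefSeq, GRCm38.p6), AGGTGTGA on either strand occurred in 350 of 27025 genes (1.3%) and in 0 of the 20 named genes with a promoter entry. The shorter AGGTGT, which includes those matches, occurred in 13.6% of all genes, in 2 of the 20 named genes, in 5 of 21 genes of the lower set (23.8%) and in 4 of 26 of the higher set (15.4%). The matches among the named genes are shown with their surroundings, as 1 higher and 1 lower gene, with the match in capitals. AU041133 (chr10:82127771-82127890, plus strand) and 4930425O10Rik (chr3:138727136-138727234, minus strand) have it 186 and 215 bases before the start.
AU041133: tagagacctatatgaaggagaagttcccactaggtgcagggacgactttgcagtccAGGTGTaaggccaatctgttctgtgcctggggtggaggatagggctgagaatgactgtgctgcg
4930425O10Rik: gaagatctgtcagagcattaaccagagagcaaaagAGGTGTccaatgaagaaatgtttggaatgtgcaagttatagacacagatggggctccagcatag
AU041133 read 4.92 to 5.49 in the full tier and 5.58 to 6.06 in the low tier, and 4930425O10Rik 3.99 to 4.28 and 3.65 to 3.92. A match is a run of letters, and binding was not measured.

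Gene lists for the tissues and pathways of Tbx1 were described by counts and medians. None of their genes was called between the tiers (limma, adjusted p of 0.360 or above), and the background for the counts below is that 3.79% of all genes had an unadjusted p under 0.05 and were higher, and 1.12% were lower. The median difference over all genes was 0.02. No list was tested as a set.

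In the lists for pharyngeal, heart field and otic tissues, 0 to 2 genes each had an unadjusted p under 0.05. Of 15 measured genes of the pharyngeal endoderm and pouches, 0 had an unadjusted p under 0.05, with a median difference of -0.05. Pax1, a transcription factor of the pouches and sclerotome, read 6.92 to 7.28 in the full tier and 6.70 to 7.13 in the low tier (-0.24). Hoxa3, which patterns the third arch and pouch, differed by -0.22, Tbx3 by -0.28 and Hhex by 0.15. Of 17 otic and placode genes, 2 had such a p, both lower (11.8%, against 1.12% of all genes): Neurod1, which drives neuron formation in the ganglia (-0.42), and Oc90, the main protein of otoconia (-0.39). The Neurod1 values were 8.57 and 8.11 in Neo/Neo and 7.76 and 7.73 in -/-, against 8.36 to 8.53 in the full tier, and Oc90 was at 5.32 and 5.21 in WT but at 4.66 and 4.54 in Neo2/+, against 4.48 to 4.66 in the low tier. Of 19 second heart field genes 1 had such a p, Osr1 (0.31, from 6.70 to 7.10 to 7.13 to 7.46), and of 11 cranial mesoderm genes 1, the muscle regulator Myf5 (0.21). Alx1 (0.35) was the 1 of 25 genes of the neural crest and arch mesenchyme. Of 39 genes linked to Tbx1 in the literature, 2 had such a p, both higher: Myf5 and the retinaldehyde reductase Dhrs3 (0.28, no overlap). Of 32 chromosomal neighbours of Tbx1, 0 had, and of 14 other T-box genes, 0 had.

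Of 20 cardiomyocyte genes, 5 were higher at an unadjusted p under 0.05 (25%, against 3.79% of all genes) and 0 lower. Whatever the p, 12 of the 20 were higher in the low tier and 8 lower. In 4 of the 20 the tiers did not overlap, where 3.05% of all genes were higher without overlap. Tnnc1, the cardiac calcium-binding troponin, read 9.98 to 10.08 in the full tier, 10.35 and 10.68 in Neo/Neo, and 10.25 and 10.35 in -/- (0.38 ± 0.10, SE). Csrp3, a protein of the Z-disc, read 8.50 to 8.70 and 8.75 to 9.09 (0.36 ± 0.09, SE), Smpx 7.14 to 7.64 and 7.69 to 8.24 (0.47 ± 0.15, SE), and Tnni2 5.82 to 6.11 and 6.11 to 6.27, touching to 2 decimals (0.25 ± 0.09, SE). The median difference of the list was 0.13. By embryo, the list's median deviation from the full tier was 0.02 and 0.40 in the Neo/Neo embryos and -0.09 and 0.37 in the -/- embryos. In the full tier it was -0.05 to 0.06, so the higher list medians were those of 1 embryo of each low genotype. Single genes could differ from the list median: Smpx was highest in -/- replicate 1, at 8.24.

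Genes of p53 and of low oxygen had similar counts. Of 18 p53 targets, 5 were higher at an unadjusted p under 0.05 and 0 lower. Among the 5 were the adhesion gene Perp (0.25), the cyclin Ccng1 (0.37), Eda2r (0.25) and Phlda3 (0.20). Over all 18 targets, 15 were higher and 3 lower whatever the p, and the median was 0.14. Their deviations by embryo were 0.15, 0.05, 0.20 and 0.09 in the low tier and -0.05 to 0.06 in the full tier. Of 19 hypoxia and glycolysis genes, 4 were higher by the same measure and 0 lower: the mitophagy gene Bnip3 (0.37), the kinase Pdk1 (0.46), the prolyl hydroxylase Egln3 (0.38) and the peptide hormone Adm (0.25). Over all 19 genes, 15 were higher and 4 lower whatever the p. The median was 0.16, and the embryos' deviations were 0.02, 0.29, -0.02 and 0.37, in the same order of embryos as the heart muscle genes. Of 22 BMP pathway genes 3 were higher at an unadjusted p under 0.05 (13.6%, against 3.79% of all genes). In all 3 the tiers did not overlap, where 3.05% of all genes were higher without overlap. Over all 22 genes, 11 were higher and 11 lower whatever the p. The ligand Bmp5 read 7.39 to 7.48 and 7.64 to 7.96 (0.38 ± 0.09, SE), the decoy receptor Bambi 9.01 to 9.22 and 9.32 to 9.58 (0.28 ± 0.09, SE), and the target Id2 11.10 to 11.30 and 11.39 to 11.53 (0.25 ± 0.08, SE). The BMP list as a whole had a median of 0.01, with 0.17 in Neo/Neo and -0.04 in -/- against the full tier.

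For other tissues of the embryo and its membranes, the low-tier embryos often lay on both sides of the full tier. Of 21 neuron genes 2 had an unadjusted p under 0.05, both lower (Crmp1 at -0.38 and Cntn2 at -0.51), and the list's deviations were 0.37 and -0.16 in Neo/Neo and 0.18 and -1.01 in -/-. Of 19 neural progenitor genes 1 was lower, the zinc finger gene Zic1 (-0.30, with 11.16 to 11.39 in the full tier and 10.63 to 11.11 in the low tier). Yolk sac markers can mark membranes left on an embryo, and 2 of 18 were higher at an unadjusted p under 0.05: Ttr (0.68) and Apoa1 (0.47). The deviations of the list were -0.05 to 0.11 in the low tier and -0.10 to 0.17 in the full tier. Over all 18 yolk sac genes, 9 were higher and 9 lower whatever the p. Their part in the other differences was not tested. Primitive erythroid genes had 0 of 16 and deviations of -0.40 to 0.56 in the low tier and -0.36 to 0.35 in the full tier. Macrophage and platelet genes had 1 of 18 (Csf2rb, -0.91). Whatever the p, 13 of these 18 were higher in the low tier and 5 lower, with a list median of 0.10. Of 9 placenta and decidua genes 1 was lower at an unadjusted p under 0.05, Psg17 (-0.27), at signals of 2.75 to 3.37. Whatever the p, 6 of the 9 were higher and 3 lower. In the list of nuclear-retained RNAs and housekeeping genes used to look at RNA quality, 2 of 9 were lower, Rpl27a and the nuclear RNA Kcnq1ot1 (-0.37), and Malat1 differed by -1.42. In -/- alone, besides Rpl27a, Fgfr3 (fell by 0.58; limma, adjusted p = 0.0475) and Scarf2, a neighbour of Tbx1 on its chromosome (fell by 0.70; limma, adjusted p = 0.0479), were called, with the call lost in 12 of 15 alternatives for both, and no list gene was called in Neo/Neo.

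The remaining lists held few such genes. A higher gene was found in each of 4 lists: 14 somite genes (Myf5), 18 retinoic acid genes (Dhrs3), 18 immediate early genes (Ier3, 0.26) and 10 genes of developmental timing (Dppa4, 0.21), and 1 lower gene among 31 cell cycle genes (Kif15, -0.28). None was found among 22 FGF, 14 hedgehog, 20 canonical Wnt, 18 presomitic mesoderm and tailbud, 14 posterior Hox, 15 limb bud and 20 endothelial and lymphatic genes. The presomitic mesoderm list had a deviation of 0.51 in -/- replicate 2, against -0.12 to 0.09 in the other 7 embryos.

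**Figure D5:**
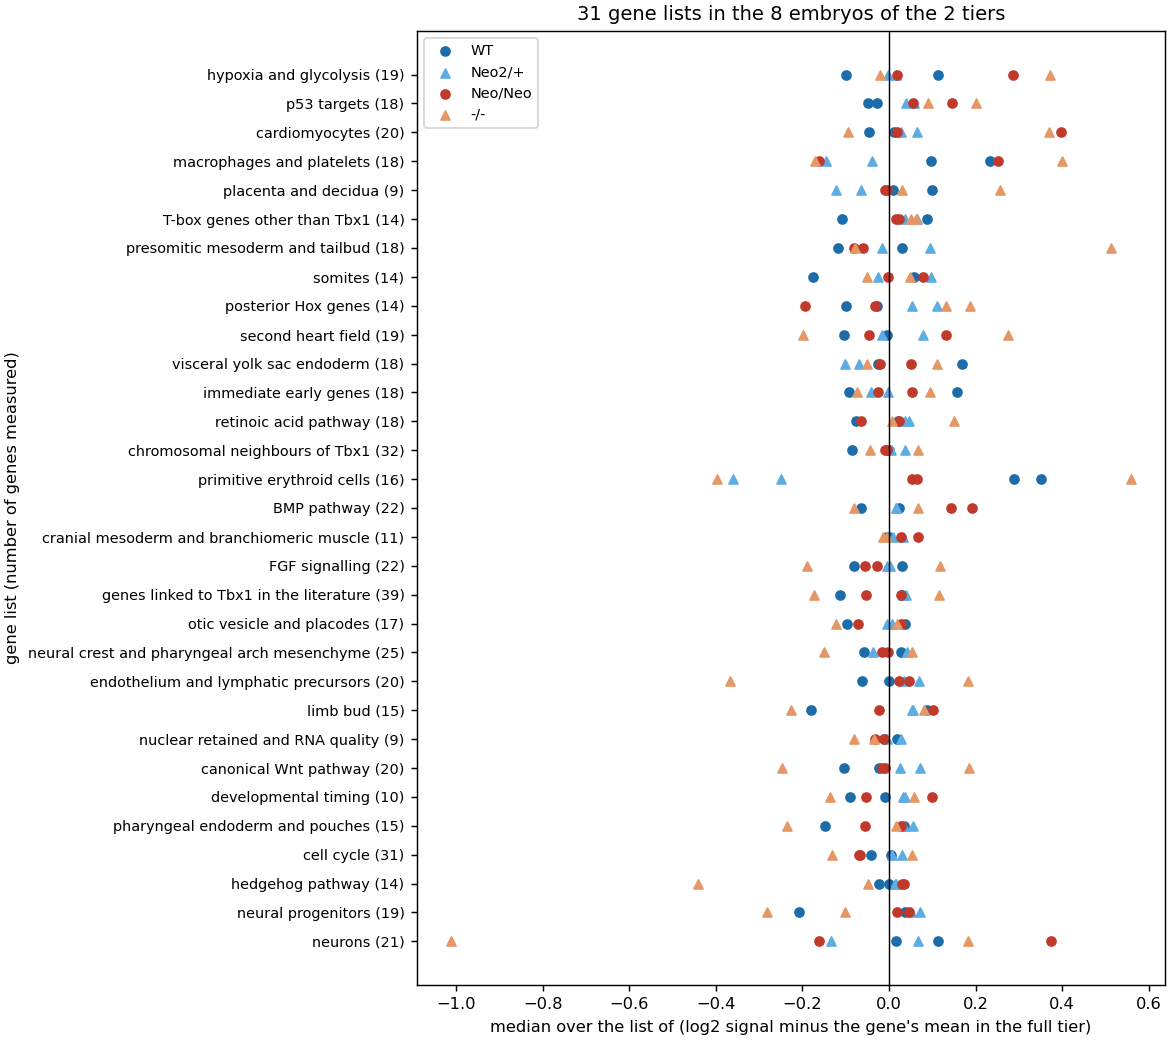
Median over each of 31 gene lists of the log2 deviation from the gene's mean in the full tier, for each of the 8 embryos (x axis, 1 symbol per embryo; lists in rows with the number of genes measured). For cardiomyocytes the symbols at 0.40 and 0.37 are replicate 2 of Neo/Neo and of -/-, and for neurons the symbol at -1.01 is -/- replicate 2.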

How the data were processed

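RNA of 18 whole embryos was labelled from 6 ug of total RNA each and hybridised to Affymetrix Mouse Genome 430 2.0 arrays. The authors deposited log2 values, 1 per probe set and array, computed by RMA in affy according to the submitters' processing notes. The sources used here do not give the versions. They were used as deposited, without a filter. Of 45037 probe sets, the annotation gave 1 gene to 34945, several to 932 and none to 9160; gene IDs of 34741 matched RefSeq (GRCm38.p6), which changed 0 symbols. Each gene is represented by its brightest probe set over the 18 arrays (18193 genes).

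Differences were tested with limma 3.58.1 (R 4.3.3, lmFit and eBayes, two-sided), with Benjamini-Hochberg adjustment over 45036 probe sets and a threshold of 0.05. The tiers were compared with 2 tier means (6 residual degrees of freedom), single genotypes with 4 genotype means (4 residual degrees of freedom), and the 8 embryos of neither tier in a fit of their own. SE is limma's moderated standard error. The tier comparison was also run on simulated data, with independent noise and changes placed in probe sets of low spread. It recovered 38% of changes of 0.5, 94% of changes of 1 and 100% of changes of 2, with 13 false calls. The simulation held no difference between genotypes of a tier and no array that stood apart, so recovery in the real data is unknown. The precision is limited by the number of embryos.

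The genes named for the tiers are up to 12 per direction, called or, failing that, with the smallest p, and alike in both low genotypes, which means differences of the same sign of which the smaller is at least 0.5 of the larger. For other comparisons they are up to 4 per direction among those called, or 2 with the smallest p, and for lists the 4 members of smallest p. Sex markers are left out, and Tbx1 is described throughout. The members, the 32 gene lists (31 described, and sex markers) and the rule were chosen with earlier results of these data known. Alternatives were a fit of all 9 genotypes, 4 genotype means, embryo sex, an intensity trend, array weights, brighter probe sets, median centring, the replicate number as a block, WT alone, the mean over a gene's probe sets, looser or stricter likeness, and leaving out each array. Same-numbered embryos did not deviate together (correlations of -0.06 to 0.19 between genotypes), so the numbers were not taken as pairs.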

Additional observations from a re-analysis of the deposited data

Results flagged for a closer look

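Single embryos lay far from the other 3 of their tier in 14 of the 116 groups of 4 examined, where chance sets apart about 1 in 20. In the low tier, -/- replicate 2 was the distant embryo for Thg1l (6.55) and Adat2 (7.64), and also for the median deviation of the placenta and decidua list (0.26) and of the presomitic mesoderm and tailbud list (0.51). The brighter Lsm8 probe set was distant in -/- replicate 1 (11.93). In the full tier, Neo2/+ replicate 2 was distant for Ctsf (6.26), Cmbl (4.28), Rpl27a (8.72) and the brighter Lsm8 probe set (11.51). WT replicate 1 was distant in the median deviation of 5 lists: pharyngeal endoderm and pouches (-0.15), neural progenitors (-0.21), limb bud (-0.18), BMP pathway (-0.07) and genes linked to Tbx1 in the literature (-0.11).

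The low genotypes differed from each other, by limma's test of Neo/Neo minus -/-, at 10 of the genes named. Neo/Neo was higher for Fn3krp (1.49, adjusted p = 0.0288), Supt16 (1.80, adjusted p = 0.00324), Glra1 (1.57, adjusted p = 0.0402) and Fat4 (1.19, adjusted p = 0.00908). It was lower for Gm6958 (-4.44, adjusted p = 0.0390), Rpgrip1 (-5.11, adjusted p = 2.09e-06), Galc (-3.17, adjusted p = 0.00499), Sox11 (-2.20, adjusted p = 0.0109), ccdc198 (-1.06, adjusted p = 0.0260) and 3110045C21Rik (-2.67, adjusted p = 0.0135). Each genotype held 2 embryos of 1 sex.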

How the results depend on the processing

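Between the tiers, the 1 called probe set became 15 with 9 genotype means over all arrays, 41 with 4 genotype means and 41 with array weights (limma), each including the Lsm8 probe set, and 0 among the brighter probe sets, which do not include it. Of those, 10, 9, 28 and 0 were alike in both low genotypes. With array weights 1 list gene was called. The set of higher probe sets became 172 and the lower set 114 with WT alone as the full tier, and the lower set 40 among brighter probe sets and 138 when the same sign sufficed. For Neo/Neo against the full tier 41 became 90 (9 means), 9 (sex), 69 (intensity trend) and 317 (array weights). For -/- against the full tier 329 became 144 (9 means), 17 (sex), 23 (array weights), 209 (brighter probe sets) and 204 (median centring), and for Neo/Neo against -/- 236 became 2 (sex), 90 (array weights) and 134 (brighter probe sets). In the embryos of neither tier 0 became 3 with median centring and, in alternatives chosen after seeing the data, 3 with an intensity trend and 7 with array weights. Leaving out each embryo gave 1 to 21 between the tiers (2 without -/- replicate 1, 3 without WT replicate 2, 21 without -/- replicate 2), 1 to 21 alike, 26 to 114 higher and 63 to 122 lower set members, 4 to 140 for Neo/Neo, 17 to 7375 for -/-, 6 to 5566 for Neo/Neo against -/-, 0 to 10 within the full tier, 0 to 1 in the other embryos and 0 list genes. Where an embryo was left out, the lone sample was assumed to vary like the other genotypes. With the replicate number as a block, although the numbers do not pair the embryos, the counts were 1, 47, 225, 165, 0 and 0 in the order of the comparisons above, with Neo2/+ against WT before the embryos of neither tier. Signs turned for the brighter Lsm8 probe set with array weights (-0.031) and when 1 embryo was left out (-0.039 without -/- replicate 1, up to 0.11), and for the called Lsm8 probe set between the other embryos when 1 was left out (-0.066 without Neo2/- replicate 2, up to 0.33). Of the calls of named genes, 111 of 163 combinations of gene and alternative lost theirs for -/- against the full tier, 27 of 103 for Neo/Neo against the full tier and 35 of 118 for Neo/Neo against -/-. The 24 genes named for the tiers, which were not called and so had no call to lose, kept their direction in all 400 combinations, and in 10 the gene became called: 2410018L13Rik, Adat2, Ctsf, Mir1931, Rpl27a and Thg1l with array weights, and Adat2, Cercam, Mir1931 and Thg1l without -/- replicate 2. The causes were not tested. List medians moved by more than the spread between embryos in 10 of 557 cases.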

Other observations

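Leaving out WT replicate 2 brought 2 probe sets of Paip1, which binds the poly(A)-binding protein in translation, past the threshold, at 3.64 (adjusted p = 0.00186) and 2.31 (adjusted p = 0.0352) by limma, against 2.84 and 1.83 with all 8 embryos. Leaving out -/- replicate 2 brought 3 probe sets of Pttg1, the securin of the anaphase, to 0.77, 1.57 and 1.20 (adjusted p-values of 0.0495, 0.00103 and 0.00443), the long noncoding RNA Rmst to -2.56 (adjusted p = 0.000207), the zinc finger RNA-binding protein gene Zfr to -1.28 (adjusted p = 0.00184) and the integrator subunit gene Ints10 to 1.07 (adjusted p = 0.0275), all by limma. Neither these nor the Paip1 probe sets were called when any other single embryo was left out. The choice of these genes was made with their values in view. Their p-values therefore depend on the outcome and are no support for a difference. Without -/- replicate 2, that genotype rested on replicate 1 alone, the array that stood apart by its correlation.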
